A study of Mus musculus with 20 samples.

Results

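The 10 genes described here encode the main chaperones of the heat shock response in the cytosol and the mitochondrial matrix: Hspa1a, Hspa1b, Hsph1, Hspa8, Hsp90aa1, Hsp90ab1, Dnajb1, Hspb1, Hspe1 and Hspd1. They were taken by symbol from count tables that list 24062 genes. All 10 were found, and all 10 passed the filter on low counts in each comparison. Poly(A) RNA of male C57BL/6N mice on a chow diet was sequenced as single-end reads of 100 nucleotides. The 4 groups of 5 libraries were pituitary labelled KLF14 KO (19 to 21 weeks old), pituitary labelled wild type (WT, 18 to 21 weeks), iWAT (inguinal white adipose tissue, a fat depot under the skin of the groin) labelled KLF14 KO (19 to 21 weeks) and iWAT labelled WT (18 to 21 weeks). Klf14 encodes a Krüppel-like transcription factor, and the sources used here do not give the allele behind the KO label. Libraries carry mouse numbers, which are the same in both tissues. Whether 1 number is 1 animal, and whether replicate libraries are separate animals, is in no label. The p-values thus speak only of the variation among the libraries at hand.

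Heat shock proteins hold unfolded proteins, help them to fold and keep signalling proteins active. HSP70 proteins bind exposed hydrophobic stretches in a cycle of ATP hydrolysis that J-domain proteins (HSP40) start and that exchange factors such as HSP110 end, HSP90 completes the maturation of clients such as steroid hormone receptors, and the mitochondrial chaperonin of HSP60 and HSP10 folds imported proteins. Heat, oxidants and protein damage release heat shock factor 1 (HSF1), which binds inverted repeats of the unit GAA, the heat shock elements, before the genes of inducible chaperones. Cells also hold large amounts of the constitutive members without any stress.

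Library totals in the pituitary spanned 13.6 to 17.6 M (mega) counts, and those in iWAT 14.8 to 18.7 M. The 8 pituitary markers summed to between 99810 and 152839 CPM (counts per mega-count of the TMM-scaled library) in the pituitary and between 1.20 and 123 CPM in iWAT, and the 6 adipocyte markers to between 3.17 and 4.87 CPM in the pituitary and between 4909 and 17641 CPM in iWAT. In the pituitary the targeted gene went against its label: Klf14 had 32.4 ± 2.98 CPM in KO pituitaries and 16.1 ± 1.78 CPM in WT pituitaries (SD, n = 5 each, edgeR adjusted p = 7.64e-05). In iWAT Klf14 was low and the groups overlapped, at 0.480 to 2.74 CPM in KO and 0.0608 to 3.06 CPM in WT libraries. KO and WT therefore name the labels throughout. Library KO 50 stood apart in both tissues, with a leading multidimensional scaling coordinate of 1.34 in the pituitary (the other 9 between -0.35 and 0.07) and of -2.98 in iWAT (the other 9 at -1.03 or above). The pituitary library KO 66 held 433 CPM of the 5 posterior lobe markers, against 152 to 205 CPM in the other KO pituitaries and 186 to 291 CPM in the WT pituitaries.

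The sequences before the start sites of 5 promoters are shown because they hold the letters of a heat shock element and because 2 of the promoters belong to near-identical copies and another is shared by a pair of genes. RefSeq windows on GRCm38.p6, from 250 bases before to 50 bases after the start site, were found for 7 of the 10 genes. Hspa8, Hsp90aa1 and Hsp90ab1 had none. Capitals mark GAANNTTC and TTCNNGAA, each of which is its own reverse complement, so that a search of 1 strand covers both. The Hspa1a stretch is chr17:34972157-34972406 and the Hspa1b stretch chr17:34959239-34959488, both on the minus strand. The stretch between Hspd1 and Hspe1 is chr1:55087933-55088147 on the plus strand. The Hsph1 stretch is chr5:149636316-149636395 on the minus strand and the Hspb1 stretch chr5:135887789-135887848 on the plus strand.
Hspa1a: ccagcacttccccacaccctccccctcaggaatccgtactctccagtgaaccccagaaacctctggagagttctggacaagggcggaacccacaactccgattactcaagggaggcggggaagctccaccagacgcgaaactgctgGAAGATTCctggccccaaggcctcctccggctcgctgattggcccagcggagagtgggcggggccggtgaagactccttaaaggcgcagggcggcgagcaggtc
Hspa1b: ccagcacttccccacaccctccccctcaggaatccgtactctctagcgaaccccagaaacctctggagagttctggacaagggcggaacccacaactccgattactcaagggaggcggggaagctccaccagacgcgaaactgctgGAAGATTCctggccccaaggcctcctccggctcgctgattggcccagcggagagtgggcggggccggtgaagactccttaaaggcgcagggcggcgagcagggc
Hspd1-Hspe1: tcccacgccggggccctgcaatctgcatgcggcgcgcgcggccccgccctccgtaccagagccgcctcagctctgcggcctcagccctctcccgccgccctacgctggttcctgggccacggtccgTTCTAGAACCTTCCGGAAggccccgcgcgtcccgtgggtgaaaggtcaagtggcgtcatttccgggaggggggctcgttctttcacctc
Hsph1: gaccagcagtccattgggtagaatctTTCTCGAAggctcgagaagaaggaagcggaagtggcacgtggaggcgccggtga
Hspb1: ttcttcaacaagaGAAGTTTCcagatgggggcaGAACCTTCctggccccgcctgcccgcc
The 250 bases before Hspa1a and Hspa1b differed at 3 bases, and both hold 1 match, at -104 from the start site. The 215 bases between Hspd1 and Hspe1, which are transcribed away from each other, hold 3 overlapping matches that together make 2 matches to a longer form, in which a match is followed after 2 further bases by the next unit, GAA after TTC or TTC after GAA. Hspb1 holds 2 matches, at -117 and -97. Hsph1 holds 1 before its start site, at -54, and 2 after it, at 15 and 20, which together make 1 match to the longer form. No match lies in either Dnajb1 window, or in the window of another Hspd1 start site (chr1:55088243). Of all 32851 promoter windows of 300 bases, 15.1% hold at least 1 match to GAANNTTC or TTCNNGAA and 0.603% hold the longer form.

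On mm10, Hspa1a (chr17:34969359-34972156, minus strand, 1 exon) and Hspa1b (chr17:34956429-34959238, minus strand, 1 exon) lie 10120 bases apart. Hspd1 (chr1:55077834-55087932, minus strand, 12 exons) and Hspe1 (chr1:55088148-55091317, plus strand, 4 exons) stand head to head, 215 bases apart. The others are single genes: Hsph1 at chr5:149616845-149636315 (minus strand), Hspa8 at chr9:40801273-40805199 (plus strand), Hsp90aa1 at chr12:110691036-110696395 (minus strand), Hsp90ab1 at chr17:45567778-45573261 (minus strand), Dnajb1 at chr8:83608175-83611903 (plus strand) and Hspb1 at chr5:135887919-135889563 (plus strand). None of the 10 shares exon bases with another counted gene. Some share sequence with copies elsewhere, which bears on how reads were assigned: 48.6% of the 100-base stretches of the Hspa1a transcript and 49.9% of those of the Hspa1b transcript occur unchanged in a transcript of another GENCODE gene, nearly all of them in the other copy. The share was 62.8% for Hspa8, 56.3% for Hspb1, 53.2% for Hsp90aa1, 26.9% for Hspd1 and 20.4% for Hspe1 (mostly with Gm15459 for Hspa8, Hsp25-ps1 for Hspb1, Gm12346 for Hsp90aa1 and Hspd1-ps3 for Hspd1), and 0% for Hsph1, Hsp90ab1 and Dnajb1. The levels of the genes with shared stretches carry that uncertainty.

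The constitutive chaperones were among the most abundant transcripts of both tissues and the inducible HSP70 copies were near the low end. Levels per length are given as RPKM (counts per kilobase of counted exon per mega-count, scaled). Hspa8, the constitutive HSP70 (HSC70), averaged 246 RPKM in the pituitary and 268 RPKM in iWAT (n = 10 each), above 99.3% and 99.0% of the tested genes. Hsp90ab1, the constitutive HSP90 beta, averaged 220 RPKM in the pituitary and 214 RPKM in iWAT. Hsp90aa1, the inducible HSP90 alpha, averaged 78.8 RPKM in the pituitary and 57.9 RPKM in iWAT. By their means these 3 cytosolic genes led the order in the pituitary. In iWAT the mean of Hspd1 stood above that of Hsp90aa1, but their ranges overlapped (49.6 to 104 RPKM for Hspd1 and 47.8 to 69.0 RPKM for Hsp90aa1), as did those of Hsp90aa1 and Hspe1. Hspd1, which encodes HSP60, averaged 48.0 RPKM in the pituitary and 68.6 RPKM in iWAT, and Hspe1, which encodes its partner HSP10, averaged 42.9 and 53.6 RPKM in the same order of tissues. Hsph1, the HSP110 exchange factor, averaged 19.3 RPKM in the pituitary and 6.86 RPKM in iWAT. The small heat shock protein gene Hspb1 averaged 15.1 RPKM in the pituitary and 19.5 RPKM in iWAT, and Dnajb1, the HSP40 partner of inducible HSP70, 12.6 RPKM in the pituitary and 15.3 RPKM in iWAT. Both copies of inducible HSP70 were last: Hspa1b averaged 2.77 RPKM in the pituitary and 3.76 RPKM in iWAT, and Hspa1a 2.30 RPKM in the pituitary and 2.03 RPKM in iWAT, above 21.0% and 19.5% of the tested genes. The ranges over libraries overlapped between Hspd1 and Hspe1, Hspb1 and Dnajb1, and Hspa1b and Hspa1a in both tissues. Hspa8 and Hsp90ab1 overlapped in the pituitary and not in iWAT, where the lowest Hspa8 library (241 RPKM) lay above the highest Hsp90ab1 library (235 RPKM). Hsph1 overlapped with Hspb1 and Dnajb1 in the pituitary and with Hspa1b in iWAT.

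**Figure D1:**
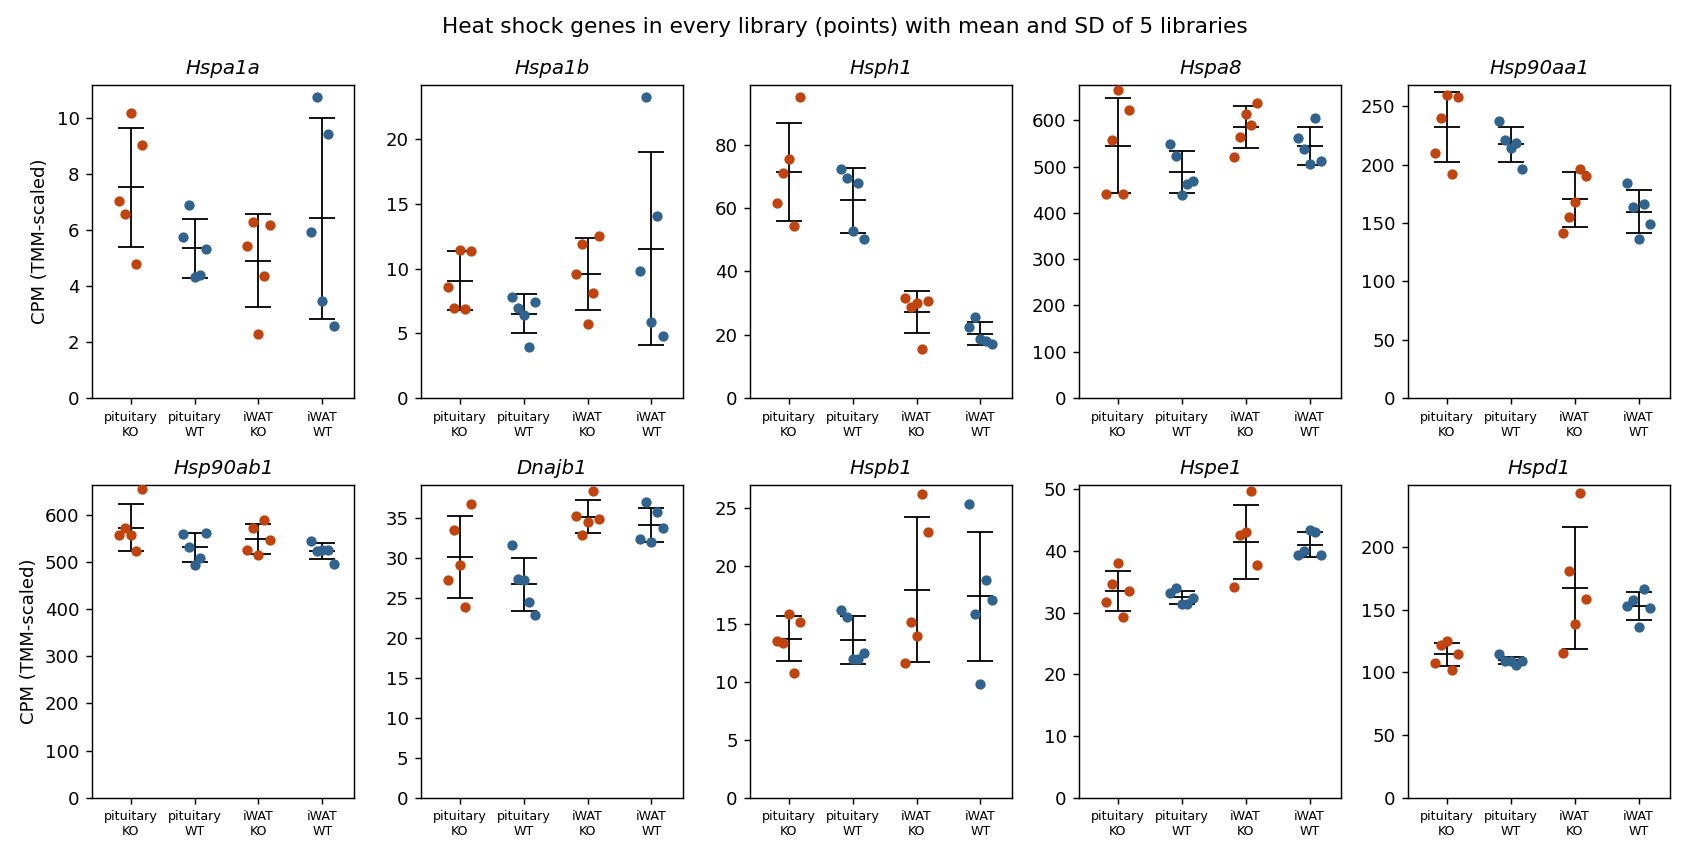
CPM (TMM-scaled, linear axis from 0) of each heat shock gene in every library, by tissue and genotype label; points are libraries and bars are the mean and SD of 5. Hsph1 lies between 50.2 and 94.99 CPM in the pituitary and between 15.6 and 31.5 CPM in iWAT, with no overlap, and the KO and WT points of a tissue overlap in every panel.

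The spread between libraries also differed by gene. The biological coefficient of variation of the inducible copies was 20.03% for Hspa1a and 20.3% for Hspa1b in the pituitary and 46.4% for Hspa1a and 46.0% for Hspa1b in iWAT, where the medians over all tested genes were 9.50% in the pituitary and 22.1% in iWAT. In iWAT Dnajb1 was among the least variable genes: its coefficient of 12.3% was undercut by 1.99% of the tested genes. Hsp90ab1 varied by 7.25% in the pituitary and by 13.1% in iWAT. Of genes of like level, 78.7% varied less than Hsp90ab1 in the pituitary and 2.76% in iWAT. For Hsph1 these shares were 98.0% in the pituitary and 70.5% in iWAT, and for Dnajb1 89.997% in the pituitary and 5.03% in iWAT. In iWAT the coefficient of Hspa1a was above that of the constitutive Hspa8 (14.2%).

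Hsph1 was the heat shock gene that differed most between the tissues. Its CPM were 61.7, 71.1, 75.5, 54.4 and 94.99 in KO pituitaries (libraries 31, 32, 35, 50 and 66), against 31.5, 28.9, 29.9, 15.6 and 30.7 in KO iWAT. In WT pituitaries they were 72.3, 69.5, 52.8, 68.1 and 50.2 (libraries 33, 34, 48, 49 and 56), against 22.5, 25.5, 18.7, 18.0 and 17.2 in WT iWAT. Every pituitary library lay above every iWAT library in both genotypes. Pituitary over iWAT, Hsph1 was 2.52-fold higher in the KO libraries (log2 fold change 1.34, SE 0.20, edgeR adjusted p = 1.24e-04) and 3.06-fold higher in the WT libraries (1.61, SE 0.14, edgeR adjusted p = 1.02e-06). In bulk tissue, fewer cells of a type and less RNA per cell cannot be told apart.

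Tissue differences were common among all genes, so a call was not unusual. Of the 10 heat shock genes 4 passed the edgeR threshold (adjusted p under 0.05) in the KO libraries and 5 in the WT libraries, where 75.1% and 79.1% of all tested genes did. The median absolute log2 fold change of the 10 was 0.38 in the KO libraries and 0.36 in the WT libraries, where all tested genes had medians of 0.86 and 0.87. The groups did not overlap for 1 of the 10 in the KO libraries and for 5 of the 10 in the WT libraries, against 63.6% and 69.3% of all tested genes.

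Of the HSP90 genes, the inducible form passed the threshold and the constitutive form did not, and the difference between them was not tested. Hsp90aa1 had 210, 240, 260, 192 and 258 CPM in KO pituitaries, against 141, 155, 168, 197 and 190 CPM in KO iWAT, and 237, 221, 214, 218 and 196 CPM in WT pituitaries, against 184, 163, 136, 166 and 149 CPM in WT iWAT. The WT tissues did not overlap, whereas in the KO libraries the lowest pituitary value, of library 50, lay below the highest iWAT value, also of library 50. Hsp90aa1 was higher in the pituitary in both genotypes, with a log2 fold change of 0.39 (SE 0.12, edgeR adjusted p = 0.0119) in the KO libraries and of 0.44 (SE 0.09, edgeR adjusted p = 6.20e-04) in the WT libraries. In the KO libraries this call was lost without library 32 (edgeR adjusted p = 0.0627) or 35 (0.0584). Hsp90ab1 had log2 fold changes of 0.004 (SE 0.08) in the KO libraries and 0.016 (SE 0.06) in the WT libraries, with 95% intervals of -0.16 to 0.17 and -0.11 to 0.14. It did not pass the threshold in either.

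The mitochondrial chaperonin pair was lower in the pituitary. Hspd1 had 107, 122, 125, 102 and 115 CPM in KO pituitaries, against 116, 181, 139, 243 and 159 CPM in KO iWAT, and 114, 109, 109, 106 and 109 CPM in WT pituitaries, against 153, 158, 136, 166 and 151 CPM in WT iWAT. Hspe1 had 31.7, 34.6, 38.0, 29.3 and 33.5 CPM in KO pituitaries, against 34.1, 42.6, 43.1, 49.7 and 37.6 CPM in KO iWAT, and 33.1, 33.9, 31.5, 31.4 and 32.4 CPM in WT pituitaries, against 39.3, 39.9, 43.3, 43.0 and 39.3 CPM in WT iWAT. For both genes the WT tissues did not overlap, and the KO tissues overlapped. Hspd1 had a log2 fold change of -0.61 (SE 0.18, edgeR adjusted p = 0.00993) in the KO libraries and of -0.48 (SE 0.06, edgeR adjusted p = 1.69e-05) in the WT libraries. For Hspe1 the values were -0.37 (SE 0.12, edgeR adjusted p = 0.0153) in the KO libraries and -0.34 (SE 0.06, edgeR adjusted p = 2.33e-04) in the WT libraries. The KO values leaned on library 50, which had the highest Hspd1 and Hspe1 of iWAT and the lowest of the pituitary: without it Hspe1 no longer passed (log2 fold change -0.22, edgeR adjusted p = 0.0693) and Hspd1 passed at -0.37 (edgeR adjusted p = 0.0238). Hspe1 did not pass without library 32 either (-0.36, edgeR adjusted p = 0.0574). Without both KO 50 and KO 66, a choice made after the values were seen, neither Hspe1 (-0.24, edgeR adjusted p = 0.132) nor Hspd1 (-0.34, edgeR adjusted p = 0.0983) passed.

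Dnajb1 was lower in the pituitary in the WT libraries. It had 27.3, 33.6, 29.2, 23.8 and 36.9 CPM in KO pituitaries, against 35.3, 32.9, 34.6, 38.5 and 34.9 CPM in KO iWAT, and 31.7, 27.4, 27.2, 24.6 and 22.9 CPM in WT pituitaries, against 32.5, 37.1, 32.1, 35.8 and 33.7 CPM in WT iWAT. The WT tissues came close without overlap. The log2 fold change was -0.36 (SE 0.09, edgeR adjusted p = 0.00343) in the WT libraries, whereas that of -0.28 (SE 0.12, edgeR adjusted p = 0.05003) in the KO libraries missed the threshold. It passed without the 20 most abundant genes (edgeR adjusted p = 0.0416), with the 1 CPM filter (0.0462), with DESeq2 (0.0399) and without library 66 (edgeR adjusted p = 0.0241). Without library 50 the KO value shrank to -0.15 (edgeR adjusted p = 0.216), and without both KO 50 and KO 66 it was -0.23 (edgeR adjusted p = 0.0926).

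The other 5 genes did not pass in either genotype. Hspb1 had 95% intervals of the log2 fold change, pituitary over iWAT, of -0.88 to 0.003 in the KO libraries and of -0.77 to 0.07 in the WT libraries, and Hspa8 had -0.41 to 0.10 in the KO libraries and -0.32 to -0.003 in the WT libraries. Hspa1b had -0.60 to 0.34 in the KO libraries and -1.60 to -0.06 in the WT libraries, where DESeq2 (adjusted p = 0.0448) and the edgeR fit without library 56 (adjusted p = 0.0297) called it lower and the main edgeR fit did not (adjusted p = 0.0725). Without library 34 its WT log2 fold change was -0.45 (edgeR adjusted p = 0.275). The WT intervals of Hspa8 and Hspa1b lay wholly on the negative side, though neither gene had an unadjusted edgeR p under 0.05. These intervals rest on a normal quantile and are narrower than the edgeR test allows. Hspa1a had log2 fold changes of 0.57 (SE 0.29) in the KO libraries and -0.27 (SE 0.36) in the WT libraries, and as little as 0.25 without KO 35 and -0.04 without WT 49. For Hspb1 the KO value of -0.44 came to -0.16 without library 50 and to 0.03 without both KO 50 and KO 66. Hspb1 was called lower in the WT libraries without library 48 (log2 fold change -0.46, edgeR adjusted p = 0.0323).

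**Figure D2:**
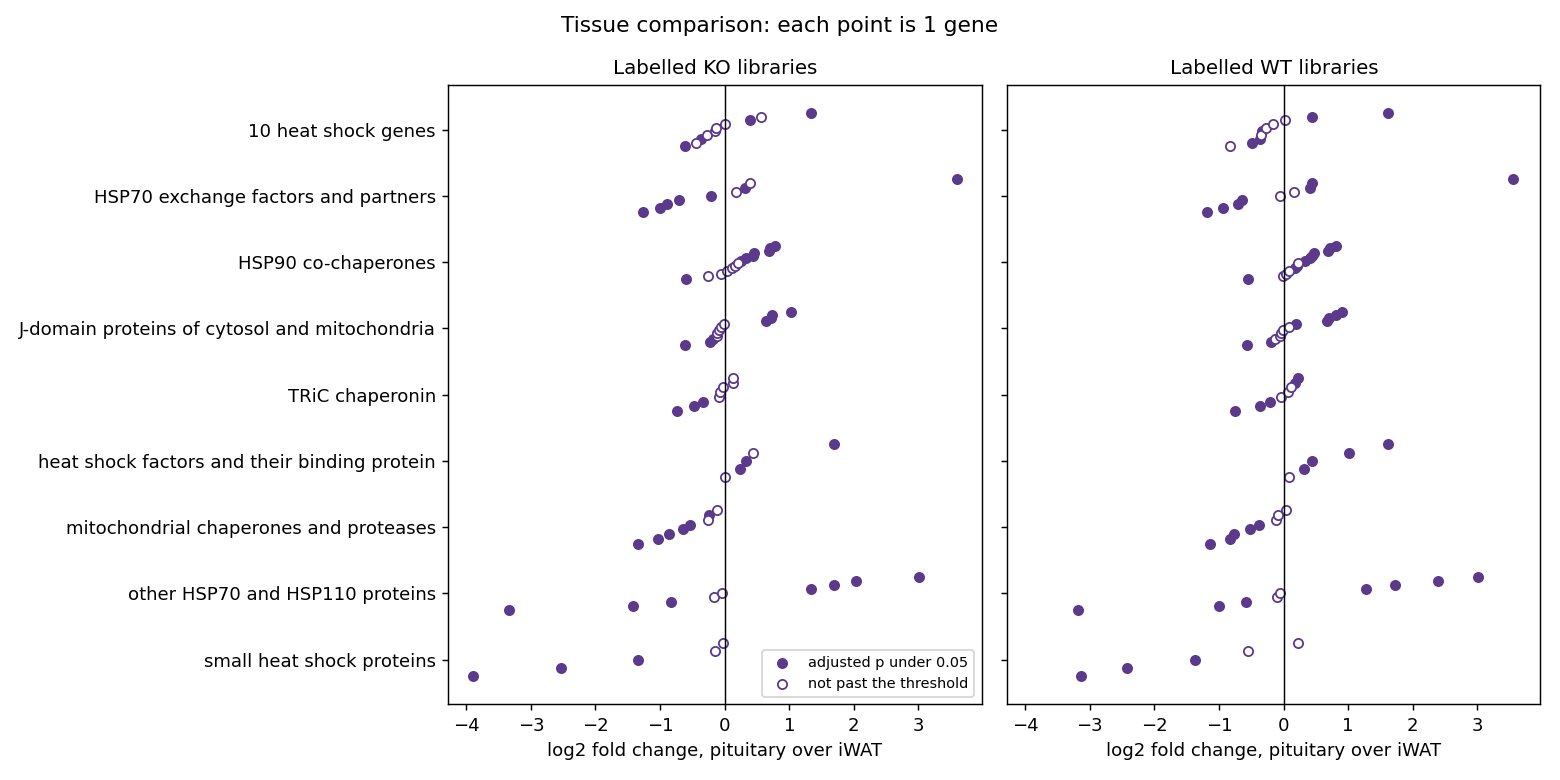
Log2 fold change, pituitary over iWAT, of the 10 heat shock genes and of related chaperone genes grouped by role, in the labelled KO and the labelled WT libraries; each point is 1 gene and filled points passed an edgeR adjusted p of 0.05. The 10 genes span -0.61 to 1.34 in the KO libraries and -0.83 to 1.61 in the WT libraries, within the range of the related genes.

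The wider chaperone network was read from 8 lists by role, with 70 genes that could be tested in the tissue comparisons. In the KO libraries 20 of the 70 were higher and 24 lower in the pituitary, and in the WT libraries 27 were higher and 21 lower, where 37.3% and 37.8% of all tested genes were higher and lower in the KO libraries and 40.2% and 38.9% in the WT libraries. Of the 14 co-chaperones of HSP90, 7 were higher and 1 lower in the KO libraries, and 9 were higher and 1 lower in the WT libraries. They included Fkbp4, an immunophilin of steroid receptor complexes (log2 fold change 0.77, SE 0.10, in the KO libraries and 0.81, SE 0.08, in the WT libraries), the ubiquitin ligase gene Stub1 (0.68, SE 0.09, and 0.71, SE 0.06, in the same order) and Stip1, which links HSP70 to HSP90 (0.46, SE 0.09, and 0.47, SE 0.07). Cdc37, which delivers kinases to HSP90, was the lower one (-0.60, SE 0.08, in the KO libraries and -0.56, SE 0.06, in the WT libraries). Cdc37l1, Ppid, Unc45a and Nudc were higher in both genotypes, and Ahsa1 and Ahsa2 in the WT libraries. Stub1 shares 686 of its 1672 counted bases with Jmjd8 and Mir3082, and Ahsa2 shares 2137 of 3716 with Usp34, and reads there were counted for each gene, so these values are uncertain.

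The HSP70 family and its partners split in both directions. Of 9 other HSP70 and HSP110 genes 4 were higher and 3 lower in each genotype. Hspa4l, another gene of the HSP110 family, was higher in the pituitary by a log2 fold change of 3.01 (SE 0.11) in the KO libraries and of 3.01 (SE 0.10) in the WT libraries, at 54.3 RPKM in the pituitary and 6.58 RPKM in iWAT. Hspa2, Hspa13 and Hspa1l, which lies 546 bases from Hspa1a, were higher too, at log2 fold changes of 2.03, 1.69 and 1.33 in the KO libraries and of 2.39, 1.72 and 1.28 in the WT libraries. Hspa12b had log2 fold changes of -3.34 in the KO libraries and -3.18 in the WT libraries, and Hspa12a and the mitochondrial Hspa9 were lower as well. Of 9 exchange factors and partners 2 were higher and 5 lower in the KO libraries, and 3 higher and 4 lower in the WT libraries, with Bag2 at log2 fold changes of 3.602 (SE 0.27) in the KO libraries and 3.55 (SE 0.10) in the WT libraries and the stress-inducible Bag3 at -1.26 (SE 0.23) and -1.19 (SE 0.16) in the same order. Of 12 J-domain proteins 4 were higher and 3 lower in the KO libraries and 5 higher and 2 lower in the WT libraries: Dnaja4, Dnajb2, Dnajb4 and Dnajb5 were higher and Dnaja2 and Dnajc7 lower in both.

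Of the genes tested on the mitochondrial and small heat shock lists, none was called higher in the pituitary. Of 8 mitochondrial chaperones and proteases 6 were lower in the KO libraries and 5 in the WT libraries. Trap1, the mitochondrial HSP90, had a log2 fold change of -1.34 (SE 0.14) in the KO libraries and -1.13 (SE 0.07) in the WT libraries, Grpel1, the exchange factor of mitochondrial HSP70, had -1.03 (SE 0.26) and -0.76 (SE 0.09), and Clpb, Clpx and Lonp1 were lower too. Cryaa and Hspb3 were too low to be tested, and Hspb3 had 0.405 to 1.31 RPKM in the pituitary and 0 to 0.24 RPKM in iWAT, without overlap. Of the 5 tested small heat shock genes 3 were lower in each genotype: Hspb8 had a log2 fold change of -2.54 (SE 0.27) in the KO libraries and -2.42 (SE 0.28) in the WT libraries, Cryab had -1.35 (SE 0.21) and -1.37 (SE 0.44), and Hspb7 had -3.90 (SE 0.66) and -3.13 (SE 0.75). Hspb7 had a mean of 0.0643 RPKM in the pituitary, and Cryab shares exon bases with Hspb2, Grpel1 with Tada2b, and Trap1 with Dnase1, so reads in the shared bases cannot be told apart. Of 5 genes for heat shock factors and their binding protein 3 were higher in the KO libraries and 4 in the WT libraries. Hsf1 was not among them, with 17.1 RPKM in the pituitary and 16.2 RPKM in iWAT and log2 fold changes of 0.01 (SE 0.07) in the KO libraries and 0.09 (SE 0.09) in the WT libraries. Hsf4 had 1.69 (SE 0.14) in the KO libraries and 1.62 (SE 0.17) in the WT libraries. Of 8 genes of the cytosolic chaperonin TRiC, 3 (Cct2, Cct4 and Cct5) were lower in both genotypes, and Cct3 and Cct7, which shares exon bases with Pradc1, were higher in the WT libraries.

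The comparison of KO with WT asked whether the KLF14 label went with the levels of the chaperones. In the pituitary all 10 log2 fold changes were positive and none passed. The largest were those of inducible HSP70. Hspa1a had 7.06, 6.58, 10.2, 4.80 and 9.04 CPM in KO pituitaries, against 5.76, 6.92, 4.33, 4.39 and 5.35 CPM in WT pituitaries, and Hspa1b had 8.59, 6.94, 11.5, 6.87 and 11.4 CPM in KO pituitaries, against 7.79, 6.92, 6.41, 3.98 and 7.40 CPM in WT pituitaries. For both copies the highest values came from KO libraries 35 and 66, and the groups overlapped. The log2 fold change was 0.49 (SE 0.19, edgeR adjusted p = 0.339) for Hspa1a, 0.47 (SE 0.19, edgeR adjusted p = 0.381) for Hspa1b and 0.48 (SE 0.18, edgeR adjusted p = 0.342) for their sum. Without both KO 50 and KO 66 that of Hspa1a was 0.57 (edgeR adjusted p = 0.272), and with age as a covariate it was 0.27 (edgeR adjusted p = 0.716). KO mice averaged 20.6 weeks of age and WT mice 19.6 weeks.

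Among the 16389 genes tested in the pituitary, edgeR called 90 (0.549%), none of them a heat shock gene, and the groups did not overlap for 2.85% of genes and for 0 of the 10. At an unadjusted p under 0.05 edgeR had 1792 genes (10.9%) and DESeq2 1704, with 2 of the 10 among them by each tool, by edgeR Hspa1a and Hspa1b. DESeq2 also called 0 of the 10. The median log2 fold change of the 10 was 0.13, and that of all tested genes 0.004, of which 51.2% were positive. Since the 10 genes varied together over libraries, as the correlations show, their common sign is not 10 separate observations. The other 8 genes had log2 fold changes from 0.005 (Hspb1, 95% interval -0.23 to 0.24) to 0.19 (Hsph1, -0.12 to 0.50), with Hspa8 at 0.15 (-0.09 to 0.40), Dnajb1 at 0.17 (-0.06 to 0.39) and Hsp90ab1 at 0.10 (-0.01 to 0.21). With age as a covariate 3 of the 10 signs turned (Hsp90aa1, Hspb1 and Hspe1) and Hsph1 came to 0.01. Of the 69 related chaperone genes tested in the pituitary, 33 had positive values, with a median of -0.002, and none passed.

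In iWAT no heat shock gene passed either, and edgeR called 0 of 16105 genes (0%), as did DESeq2. The groups overlapped for all 10, and did not overlap for 0.0745% of the genes tested. At an unadjusted p under 0.05 edgeR had 89 genes (0.553%), none of the 10, and DESeq2 had 127, with 1 of the 10 among them. Hsph1 had the largest positive value: it had 31.5, 28.9, 29.9, 15.6 and 30.7 CPM in KO iWAT, against 22.5, 25.5, 18.7, 18.0 and 17.2 CPM in WT iWAT. The KO libraries other than KO 50 lay above all WT libraries, and KO 50 lay below them. The log2 fold change was 0.42 (SE 0.20, 95% interval 0.04 to 0.81), 0.57 without library 50 and 0.14 with age as a covariate, and it did not pass in any of these. The interval rests on a normal quantile and is narrower than the edgeR test allows, whose unadjusted p was not under 0.05. Library KO 50 also held 7370 CPM of the 5 blood markers, against 1227 to 1645 CPM in the other KO libraries and 931 to 3982 CPM in WT iWAT, and 6.79 CPM of the 5 lymph node markers measured, against 144 to 670 CPM in the other 9 libraries. The 7 skeletal muscle markers all had positive log2 fold changes of KO over WT (0.56 to 1.54, none passed). They summed to 531, 106, 173, 19.0 and 189 CPM in KO iWAT (libraries 31, 32, 35, 50 and 66), against 146, 94.2, 141, 21.9 and 25.8 CPM in WT iWAT (libraries 33, 34, 48, 49 and 56). Library KO 50 was lowest of the iWAT libraries in the muscle markers, the lymph node markers and Hsph1, and KO 31 was highest in each. The part of blood, lymph node tissue and muscle in the Hsph1 value was not tested.

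**Figure D3:**
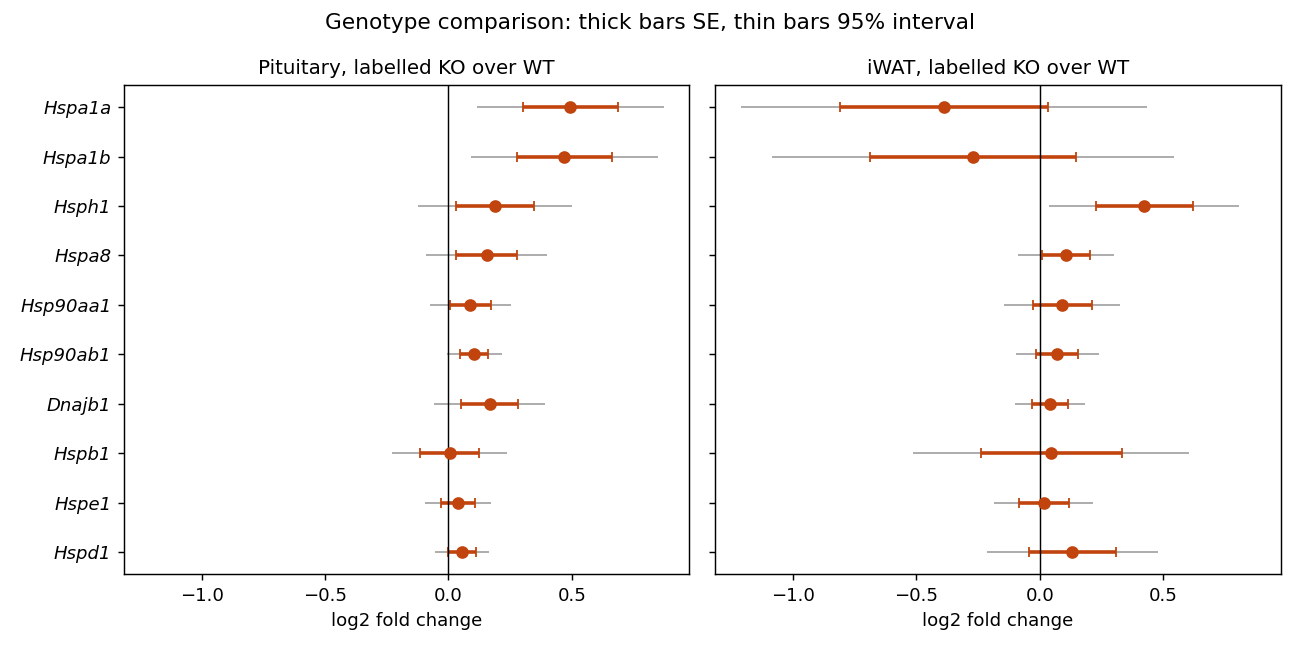
Log2 fold change of labelled KO over labelled WT for the 10 heat shock genes in the pituitary and in iWAT; points are estimates, thick bars the SE and thin bars the 95% interval (normal quantile, narrower than the edgeR test allows). All 10 points lie above 0 in the pituitary (0.005 to 0.49) and 8 of 10 in iWAT (-0.39 to 0.42), and none passed the edgeR threshold.

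Inducible HSP70 had negative values in iWAT. Hspa1a had 5.43, 6.31, 2.28, 4.36 and 6.19 CPM in KO iWAT, against 5.93, 10.8, 3.46, 9.43 and 2.58 CPM in WT iWAT, and Hspa1b had 9.60, 11.9, 5.70, 8.08 and 12.5 CPM in KO iWAT, against 9.81, 23.2, 5.84, 14.0 and 4.82 CPM in WT iWAT. The WT libraries 34 and 49 were the highest and the WT library 56 among the lowest, so that the groups overlapped over most of their range. The log2 fold changes were -0.39 (SE 0.42) for Hspa1a and -0.27 (SE 0.42) for Hspa1b, and both leaned on library WT 34: without it they were -0.12 for Hspa1a and 0.15 for Hspa1b. With other single libraries left out Hspa1a reached -0.59 and Hspa1b -0.47, both without WT 56. With age as a covariate they were -0.62 for Hspa1a and -0.54 for Hspa1b. The other 7 genes lay between 0.02 (Hspe1) and 0.13 (Hspd1). The median log2 fold change of the 10 was 0.06, and of all tested genes -0.0002, of which 49.9% were positive. Of the 70 related chaperone genes 55 had positive values, with a median of 0.05, and none passed. Genes of 1 library share its depth, scaling and composition, so these signs are not 70 separate observations. They were not counted without library KO 50.

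Whether the KO effect differed between the tissues was tested in 1 fit over all 20 libraries. The difference, pituitary minus iWAT, was 0.85 (SE 0.49, 95% interval -0.10 to 1.81) for Hspa1a and 0.72 (SE 0.48, -0.23 to 1.67) for Hspa1b, and -0.26 (SE 0.26) for Hsph1. Without number 34 the difference of Hspa1b was 0.33, beside -0.31 for Hsph1 in the same fit, and without number 35 that of Hspa1a was 0.53. For the other 7 it lay between -0.11 (Hspd1) and 0.10 (Dnajb1). None of the 10 passed, and edgeR called 0 of the 17731 genes tested (0%) and DESeq2 1. At an unadjusted p under 0.05 edgeR had 427 genes (2.41%) and DESeq2 526, with none of the 10 in either. On simulated counts of the pituitary genotype comparison edgeR called 75.8% of genes changed 1.5-fold, and on those of iWAT 5.05%. A change of that size in a randomly drawn iWAT gene would thus mostly go uncalled at this depth and spread. The changed genes were drawn at random from all tested genes. In the pituitary Hspa1a and Hspa1b varied by 20.03% and 20.3%, where the median gene varied by 9.50%, so the 75.8% does not hold for them. In iWAT the heat shock genes varied by 12.3% (Dnajb1) to 46.4% (Hspa1a), where the median gene varied by 22.1%. The 5.05% thus does not hold for each of them.

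In the pituitary the heat shock genes varied together over libraries. All 45 pairs of the 10 genes had a positive Pearson r of log2 CPM over the 10 libraries, with a median of 0.71 and a range of 0.41 to 0.92, and all 45 stayed positive after the mean of each genotype was taken off (median 0.69). The highest were those of Hspe1 with Hspd1 (0.92), of Hspa8 with Hsp90aa1 (0.91) and of Hsph1 with Hsp90aa1 (0.89). Hspa1a with Hspa1b had 0.85. In iWAT 37 of 45 pairs were positive, with a median of 0.27. There the copies Hspa1a and Hspa1b went together (0.96), as did Hsp90aa1 with Hspb1 (0.91) and Hspe1 with Hspd1 (0.76), whereas Hsph1 went against Hspe1 (-0.61) and Hspd1 (-0.49). These are descriptions over 10 libraries, and genes of 1 library share its depth, scaling and composition. Pairs of other genes were not counted, so the pattern is not shown to be particular to heat shock genes. In the pituitary Hsph1, with r = 0.51 to Hspa1a plus Hspa1b over deviations from genotype means, ranked 1235 of 11083 genes. The pairs were not computed without library KO 50. In the pituitary library KO 50 had the lowest value of each of the 10 genes among the KO libraries. Library KO 66 had the highest Hsph1, Hsp90ab1 and Dnajb1 of the tissue, and library KO 35 the highest Hspa1a, Hspa1b, Hspa8, Hsp90aa1, Hspe1 and Hspd1.

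**Figure D4:**
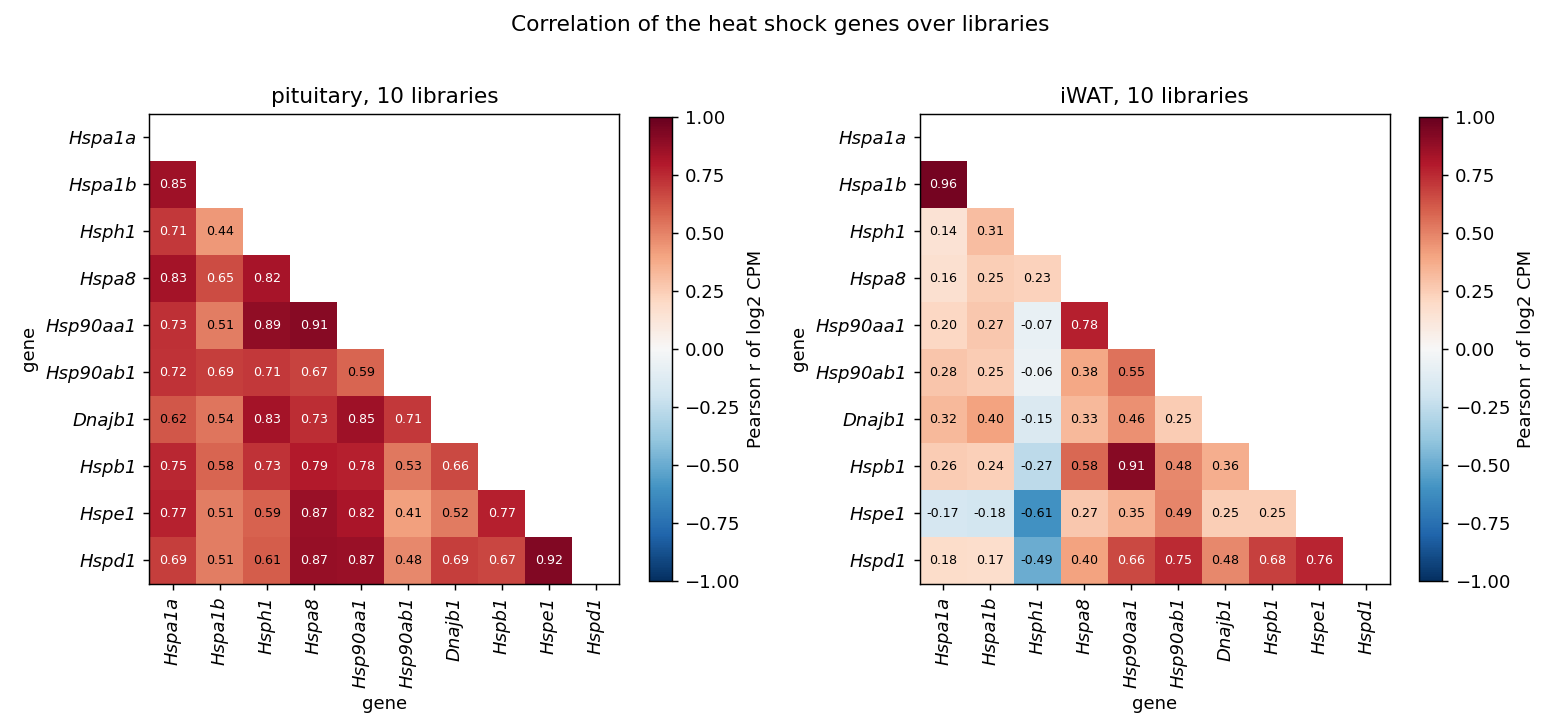
Pearson r of log2 CPM for each pair of heat shock genes over the 10 pituitary and the 10 iWAT libraries (colour scale -1 to 1, value in each cell). All 45 pairs are positive in the pituitary and 37 of 45 in iWAT, where Hsph1 with Hspe1 is lowest at -0.61.

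The relation of each gene to inducible HSP70, the summed Hspa1a and Hspa1b, was tested in both tissues, 16 relations in all. In the pituitary Pearson's r lay between 0.58 (Hsph1) and 0.76 (Hspa8) and Spearman's rho between 0.50 (Hspd1) and 0.79 (Hspb1). None passed: the Benjamini-Hochberg adjusted permutation p for r lay between 0.132 and 0.152, and that for rho between 0.143 and 0.287. For Hspa8, r was 0.76 (permutation p = 0.00995, adjusted 0.132), rho was 0.59 (permutation p = 0.0797, adjusted 0.198), and r without KO 35 and WT 49, the libraries farthest from the median, was 0.70. For Hspb1, r was 0.69 (permutation p = 0.0285, adjusted 0.148) and rho 0.79 (permutation p = 0.00896, adjusted 0.143), and r without those libraries was 0.61. Over deviations from the genotype means Hspb1 had r = 0.85 and passed (adjusted permutation p = 0.0422), the only alternative in which it did. The deviations were shuffled across both labels, so this p may be too small. In iWAT r lay between -0.18 (Hspe1) and 0.38 (Dnajb1), with adjusted permutation p between 0.4999 and 0.638, and rho between -0.20 (Hspe1) and 0.48 (Hspd1), with adjusted permutation p between 0.299 and 0.587.

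The genes most like inducible HSP70, by Pearson r over deviations of log2 CPM from the genotype means in 10 libraries, were not heat shock genes. In the pituitary, among 11083 genes with at least 10 CPM, they were Mir8094 (0.985), Pwp2 (0.95), Mrps5 (0.95), Dusp28 (0.91) and Aldh7a1 (0.91), and the first heat shock gene, Hspb1, ranked 29. In iWAT, among 10840 genes, they were Nabp1 (0.94), Ston2 (0.93), Lpp (0.92), Abcc3 (0.92) and Ppp1r10 (0.91). Dnajb1, the nearest heat shock gene there, ranked 1362. The order is a description, with no test. A read over several genes was counted for each, and whether these genes share exon bases with others is not given here.

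Whether libraries with the same number in both tissues shared their level was tested for 9 measures, with both HSP70 copies summed. Hsph1 had the highest relation, with r = 0.70 (permutation p = 0.0240, adjusted 0.216) and rho = 0.64 (permutation p = 0.0546, adjusted 0.364), and r = 0.58 without the 2 numbers farthest from the median. Hspa8 had r = 0.63 (permutation p = 0.0555, adjusted 0.250) and rho = 0.59 (permutation p = 0.0808, adjusted 0.364), and r = 0.21 without those farthest for it. The other 7 lay between -0.39 (Dnajb1) and 0.24 (Hsp90aa1). None passed after adjustment.

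The split of reads between the copies of inducible HSP70 differed between tissues. The measure was chosen after the values were seen. Hspa1b took 54.9%, 51.3%, 52.9%, 58.9% and 55.7% of the summed Hspa1a and Hspa1b counts in KO pituitaries, against 63.9%, 65.4%, 71.4%, 64.9% and 66.9% in KO iWAT. In WT pituitaries it took 57.5%, 50.0%, 59.7%, 47.5% and 58.0%, against 62.3%, 68.3%, 62.7%, 59.8% and 65.2% in WT iWAT. Each pituitary library lay below each iWAT library of its genotype, narrowly so in the WT libraries (59.7% for pituitary WT 48 against 59.8% for iWAT WT 49). The mean was 54.7% ± 2.88 in KO pituitaries and 66.5% ± 2.96 in KO iWAT (SD, n = 5 each, two-sided exact permutation p = 0.00794), and 54.6% ± 5.41 in WT pituitaries and 63.7% ± 3.21 in WT iWAT (SD, n = 5 each, two-sided exact permutation p = 0.00794), the smallest p that the design can give. The shares rest on 112 to 530 counts per library, and their 95% Wilson intervals, which cover counting error only, overlapped between the tissues for some pairs of libraries. The transcripts were 95.1% identical over 2692 aligned bases, so how the aligner placed shared reads enters the share, and its part was not tested.

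**Figure D5:**
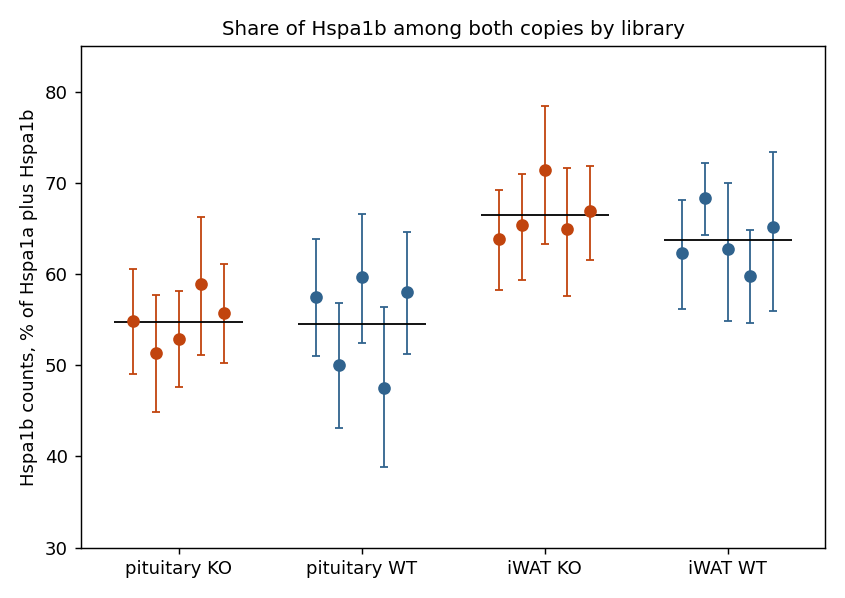
Share of Hspa1b in the summed Hspa1a and Hspa1b counts (percent, axis from 30 to 85) in every library, by tissue and genotype label; points are libraries, bars 95% Wilson intervals and lines group means. The pituitary libraries lie between 47.5% and 59.7% and the iWAT libraries between 59.8% and 71.4%.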

How the data were processed

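Poly(A) RNA-seq was read from 20 libraries, 5 of each tissue and genotype label. The deposited values are raw counts, summed for each gene over the exons of UCSC mm10 gene models with featureCounts, per the file headers. Only primary alignments were counted, a read over several genes was counted for each, and no strand option was set, per the file headers. STAR 2.4.0 and featureCounts 1.4.4 are named by the submitters' processing notes. A read that fits several copies has 1 primary alignment, so near-identical copies may exchange counts.

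Each comparison was fitted over all genes with edgeR 4.0.16 (filterByExpr, TMM, robust quasi-likelihood test, R 4.3.3), with Benjamini-Hochberg adjustment and a threshold of 0.05. DESeq2 1.42.0, other scalings and filters, age as a covariate, a replicate block and leaving out libraries were alternatives. The CPM and RPKM values were computed from the counts with TMM scaling over all 20 libraries. Correlations used log2 CPM with a prior count of 2 and permutation tests of 100000 resamples. On simulated counts with 200 changed genes, the WT tissue fit called 41.4% of genes changed 1.5-fold and 67.0% of those changed 2-fold. In the data that fit called 13461 of 17023 genes, which makes the adjusted threshold looser. The simulated shares may thus be too low for the tissue comparison. Wilson intervals (95%) cover counting error only. The 95% intervals of log2 fold changes were built from the SE with a normal quantile. They are narrower than the quasi-likelihood test allows and are approximate.

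The genes named are the 10 heat shock genes, members of the related lists that passed in a comparison or stood highest per length, the 5 genes most like inducible HSP70 in each tissue, Klf14 and the tissue markers. The heat shock genes and lists were chosen with earlier results of these data known.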

Additional observations from a re-analysis of the deposited data

Results flagged for a closer look

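In 6 of 88 groups of 5 libraries that were examined, 1 library lay far from the others (gap over range above 0.71). Chance flags about 1 in 20 groups.

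Among the heat shock genes, Hsph1 in iWAT KO 50 was at 15.6 CPM, where the other KO iWAT libraries had 28.9 to 31.5 CPM. The same library held 7370 CPM of the blood markers, where the other KO iWAT libraries had 1227 to 1645 CPM. The part of blood in the Hsph1 value was not tested.

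Klf14 in iWAT WT 33 was at 3.06 CPM, where the other WT iWAT libraries had 0.0608 to 0.802 CPM. The summed pituitary markers reached 123 CPM in iWAT KO 32, where the other KO iWAT libraries had 1.2 to 2.50 CPM. The posterior lobe markers reached 433 CPM in pituitary KO 66, where the other KO pituitaries had 152 to 205 CPM. The endothelial markers reached 269 CPM in pituitary WT 56, where the other WT pituitaries had 196 to 205 CPM.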

How the results depend on the processing

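No heat shock gene passed in either genotype comparison, or in the difference between them, under any alternative run. Genes called in the pituitary numbered 288 with DESeq2, 44 with age as a covariate, 58 without both KO 50 and KO 66 (chosen after seeing the data) and 50 to 112 with 1 library left out. They were 55, 50 and 51 without KO 32, WT 49 and WT 56. DESeq2 called 1 gene for the difference between tissues. The number of heat shock genes called between KO tissues was 2 without both KO 50 and KO 66 and 2 to 5 with 1 number left out.

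Signs turned for the values below, most but not all of them near 0, and the cause was not tested. In the pituitary with age as a covariate, Hsp90aa1 was at -0.0103, Hspb1 at -0.158 and Hspe1 at -0.0172 (log2 fold changes, as below). With 1 library left out, Hspb1 spanned -0.055 to 0.0777 and Hspe1 -0.016 to 0.0807. In iWAT without both KO 50 and KO 66, Hsp90aa1 was at -0.0465, Hspb1 at -0.3605, Hspe1 at -0.0374 and Hspd1 at -0.0737. With 1 library left out, Hspa1b spanned -0.4667 to 0.1534, Hspb1 -0.1283 to 0.2294, Hspe1 -0.0564 to 0.0818 and Hspd1 -0.0388 to 0.2416.

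Between KO tissues, Hsp90ab1 was at -2e-04 with the 1 CPM filter, Hspa1b at 0.1446 when summed with Hspa1a, and Hspb1 at 0.0329 without both KO 50 and KO 66. With 1 number left out, Hspa1b spanned -0.3742 to 0.0467 and Hsp90ab1 -0.0583 to 0.0911, and between WT tissues Hsp90ab1 spanned -0.0546 to 0.0433. In the difference of KO effects, Hsp90aa1 was at 0.0074 without the 20 most abundant genes, 0.004 with no filter and 0.1685 without both KO 50 and KO 66. Hspe1 was at 0.0307, 0.0279 and 0.1372 under the same alternatives and at 0.0021 with DESeq2. Hspb1 was at 0.4209 and Hspd1 at 0.1802 without both KO 50 and KO 66. With 1 number left out, Hspa8 spanned -0.0474 to 0.1221, Hsp90aa1 -0.0835 to 0.1189, Hsp90ab1 -0.0595 to 0.0944, Hspb1 -0.2087 to 0.21, Hspe1 -0.054 to 0.142 and Hspd1 -0.2085 to 0.1356.

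Over deviations from genotype means, 1 gene (Hspb1) passed its relation to inducible HSP70 in the pituitary, by a p that may be too small. In that setting Hsp90ab1 had r = -0.2513 between tissues. With 1 number left out, 0 to 1 genes passed in the pituitary (Hspa8 without 31) and 0 to 1 between tissues (Hsph1 without 31). The r between tissues spanned -0.3088 to 0.1079 for the summed HSP70 copies, -0.1191 to 0.324 for Hsp90ab1, -0.1759 to 0.4704 for Hspb1, -0.4886 to 0.3505 for Hspe1 and -0.5047 to 0.3082 for Hspd1.

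Libraries with the same number have the same genotype label and age, and no label says that they share an animal. The correlations of their deviations lay between -0.059 and 0.0957, none over 0.1. With a replicate block, 4 heat shock genes were called between KO tissues, 5 between WT tissues and 0 in the difference, among 12270, 13197 and 0 genes in all.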
